A study of Homo sapiens with 6 samples.

Results

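The transcripts of 10 genes of the interleukin-6 (IL-6) signaling pathway were followed in Huh7SR cells, a pool of the human hepatocellular carcinoma cell line Huh7 made resistant by long-term exposure to the kinase inhibitor sorafenib. The genes were chosen by symbol: the cytokines IL6 and LIF, the receptor chains IL6R, IL6ST, LIFR and OSMR, the kinases JAK1 and JAK2, the transcription factor STAT3 and its feedback inhibitor SOCS3. All 10 were found among the 16305 genes measured. Cells received fostamatinib, an inhibitor of spleen tyrosine kinase, at 2 µM or the solvent DMSO for 24 h, with 3 samples in each group, and polyA-selected RNA was sequenced. The labels write 2 µM for the DMSO samples as well. All samples carry the resistance of the pool, and according to the methods sorafenib was taken out of the medium some days before experiments. The labels state that treatments were applied in triplicate but not whether the triplicates were separate cultures, so the p-values measure the spread between these samples, which may be technical.

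IL-6 family cytokines signal through receptors that share the chain gp130, encoded by IL6ST. Binding of the cytokine brings gp130 together with a partner chain, the attached JAK kinases phosphorylate STAT3, and STAT3 enters the nucleus and switches on target genes, among them SOCS3, whose protein then blocks the receptor and the kinases. In the liver this pathway drives the acute-phase response, the release of plasma proteins during inflammation. Only transcripts were measured here, not cytokine protein or the phosphorylation of STAT3.

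The libraries held 13303451 to 15272737 reads on the genes listed. Values are given as CPM, the reads of a gene scaled to a common library total, or as log2 CPM. Fold changes, their standard errors (SE) and p-values come from limma's linear model, and a gene was called changed where its p-value, after Benjamini-Hochberg adjustment over all 16305 genes, was below 0.05. By this rule 47.8% of all genes were called, 23.3% higher and 24.5% lower with fostamatinib, so a call alone was common in these data. A fall of more than 2-fold was rarer, with 3.29% of all genes called and lower by that much. The 9 hepatocyte markers checked, among them ALB and AFP, were all present in every sample and all called higher, with a summed level of 4310.7 to 4579.8 CPM with DMSO and 5571.8 to 5927.0 CPM with fostamatinib. Of 15 markers of other liver cell types 7 were in the files, with sums of 314.4 to 324.2 CPM and 327.6 to 329.8 CPM. COL1A2 and LUM, genes of the extracellular matrix, made up most of these sums. Of the 7, COL1A2, PECAM1 and PDGFRB were called higher, LUM was called lower, and LYZ, COL1A1 and KRT7 were not called. The endothelial marker PECAM1 had 84 to 103 reads with DMSO and 120 to 141 with fostamatinib, the mesenchymal marker PDGFRB 28 to 40 and 55 to 63, and the myeloid marker LYZ 135 to 160 and 128 to 159. The other 8, among them the leukocyte marker PTPRC and the endothelial markers VWF and CDH5, were not among the genes listed. Their part in the results that follow was not tested. In RNA from a whole culture, fewer cells that make a transcript and less transcript per cell cannot be told apart.

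Promoter sequences of 9 of the 10 genes were found in RefSeq (GRCh38.p14). The LIF promoter was not analysed here. Shown are 3 windows of 250 bases before the annotated start that held a match to a motif of NF-kB or STAT factors, the transcription factors best known for IL6 and for its pathway. Matches are in capitals, 5′ to 3′ on the strand of the gene. The windows are chr7:22726950-22727199 (+ strand) for IL6, chr5:38595406-38595655 (- strand, 1 of 3 annotated starts) for LIFR and chr5:55994964-55995213 (- strand) for IL6ST.
IL6: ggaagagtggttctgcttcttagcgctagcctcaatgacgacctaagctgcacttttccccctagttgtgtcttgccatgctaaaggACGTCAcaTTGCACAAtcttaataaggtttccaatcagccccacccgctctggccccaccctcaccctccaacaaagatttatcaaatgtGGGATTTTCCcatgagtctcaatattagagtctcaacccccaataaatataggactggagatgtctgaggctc
LIFR: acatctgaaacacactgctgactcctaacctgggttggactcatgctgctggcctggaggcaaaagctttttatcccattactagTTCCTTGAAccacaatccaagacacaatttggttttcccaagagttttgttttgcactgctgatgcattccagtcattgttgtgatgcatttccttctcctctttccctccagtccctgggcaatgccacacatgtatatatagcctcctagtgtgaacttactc
IL6ST: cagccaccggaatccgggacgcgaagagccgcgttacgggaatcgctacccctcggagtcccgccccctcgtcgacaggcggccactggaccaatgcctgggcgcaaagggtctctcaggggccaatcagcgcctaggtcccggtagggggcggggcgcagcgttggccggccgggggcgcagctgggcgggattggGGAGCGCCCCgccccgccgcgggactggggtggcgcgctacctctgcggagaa

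The IL6 window held the NF-kB consensus as GGGATTTTCC, beginning 73 bases before the start, the C/EBP motif TTGCNCAA at 155 bases and the core of the cyclic AMP response element, TGACGT, read on the other strand at 163 bases. Among 35116 promoter windows of this length in RefSeq, 9.96% held the NF-kB consensus, 2.27% the C/EBP motif and 7.1% the response element core on either strand. The match to the STAT motif TTCNNNGAA in the LIFR window lay 165 bases before the start and read TTCCTTGAA, and 6.57% of all windows held that motif. The IL6ST window held the NF-kB consensus as GGAGCGCCCC, the reading of the other strand, at 53 bases. A further LIFR window held the STAT motif as TTCATCGAA at 182 bases, and 1 of the 3 JAK1 windows held the response element core at 80 bases. The windows of OSMR, IL6R, JAK2, STAT3 and SOCS3 held none of the 5 motifs searched, which were these and the AP-1 motif TGANTCA. For SOCS3 the windows were chr17:78360926-78361175 and chr17:78359668-78359917 (- strand). Bases between and outside them were not searched, so a motif near another start of SOCS3 would be missed. A match or its absence in this window is a description of the letters only.

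Both cytokine genes fell with fostamatinib. IL6 (ENSG00000136244, chromosome 7 of GRCh37 from 22765503 to 22771621, + strand), the cytokine that gives the family its name, had 48, 48 and 37 reads with DMSO and 6, 4 and 4 reads with fostamatinib. Every fostamatinib sample was below every DMSO sample, and IL6 was near the limit of detection after treatment. Its log2 CPM was 1.61 ± 0.25 (SD, n = 3) with DMSO and -1.43 ± 0.31 (SD, n = 3) with fostamatinib. The log2 fold change was -3.04 (SE 0.33, 95% interval -3.71 to -2.37, adjusted p = 1.02e-09, limma), which left 12.2% of the DMSO level. Of the 10 genes, IL6 alone passed the authors' filter on low counts through the DMSO group only, so that with so few reads after treatment it could be in the files only if it was higher with DMSO. Adding 2 instead of 0.5 to every count gave a log2 fold change of -2.71. Exons of IL6 overlap STEAP1B, a gene on the opposite strand, by 46 bases, and IL6-AS1, not analysed here, by 428 bases. STEAP1B had 72, 57 and 68 reads with DMSO and 46, 40 and 33 with fostamatinib, and the part of shared reads was not tested.

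LIF (ENSG00000128342, chromosome 22 from 30636442 to 30642748, - strand), leukemia inhibitory factor, which signals through LIFR and gp130, was the more abundant of the pair of cytokines. It had 34.6, 34.6 and 32.4 CPM with DMSO and 12.14, 11.58 and 14.04 CPM with fostamatinib. The groups did not overlap, and the log2 fold change was -1.43 (SE 0.084, 95% interval -1.60 to -1.26, adjusted p = 1.99e-16, limma), so that 37.1% of the level remained.

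Of 13 other ligands and receptors of the family 8 were in the files, of which 2 were called higher, 1 lower and 5 not called, with a median log2 fold change of 0.33 against 0.0015 over all genes. The share called, 37.5%, was below the 47.8% over all genes, a difference that was not tested. IL11, another cytokine that uses gp130, had 71, 63 and 57 reads with DMSO and 88, 93 and 83 with fostamatinib, and rose by 0.56 on the log2 scale (SE 0.15 and adjusted p = 2.69e-03, limma). Its receptor chain IL11RA rose by 1.11 (SE 0.26 and adjusted p = 5.37e-04, limma), from 17, 18 and 19 reads to 26, 40 and 49. IL31RA, a receptor chain that pairs with OSMR to bind IL-31, fell by 0.60 on the log2 scale (SE 0.10 and adjusted p = 5.29e-06, limma). CLCF1, cardiotrophin-like cytokine factor, had 565 to 618 reads in the 6 samples and a log2 difference of 0.05 (adjusted p = 0.563, limma). CTF1, CNTF, EBI3 and IL27RA had log2 differences of 0.27, 0.38, -0.06 and 0.41 and were not called. OSM, the cytokine that binds OSMR, was not among the genes listed.

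**Figure D1:**
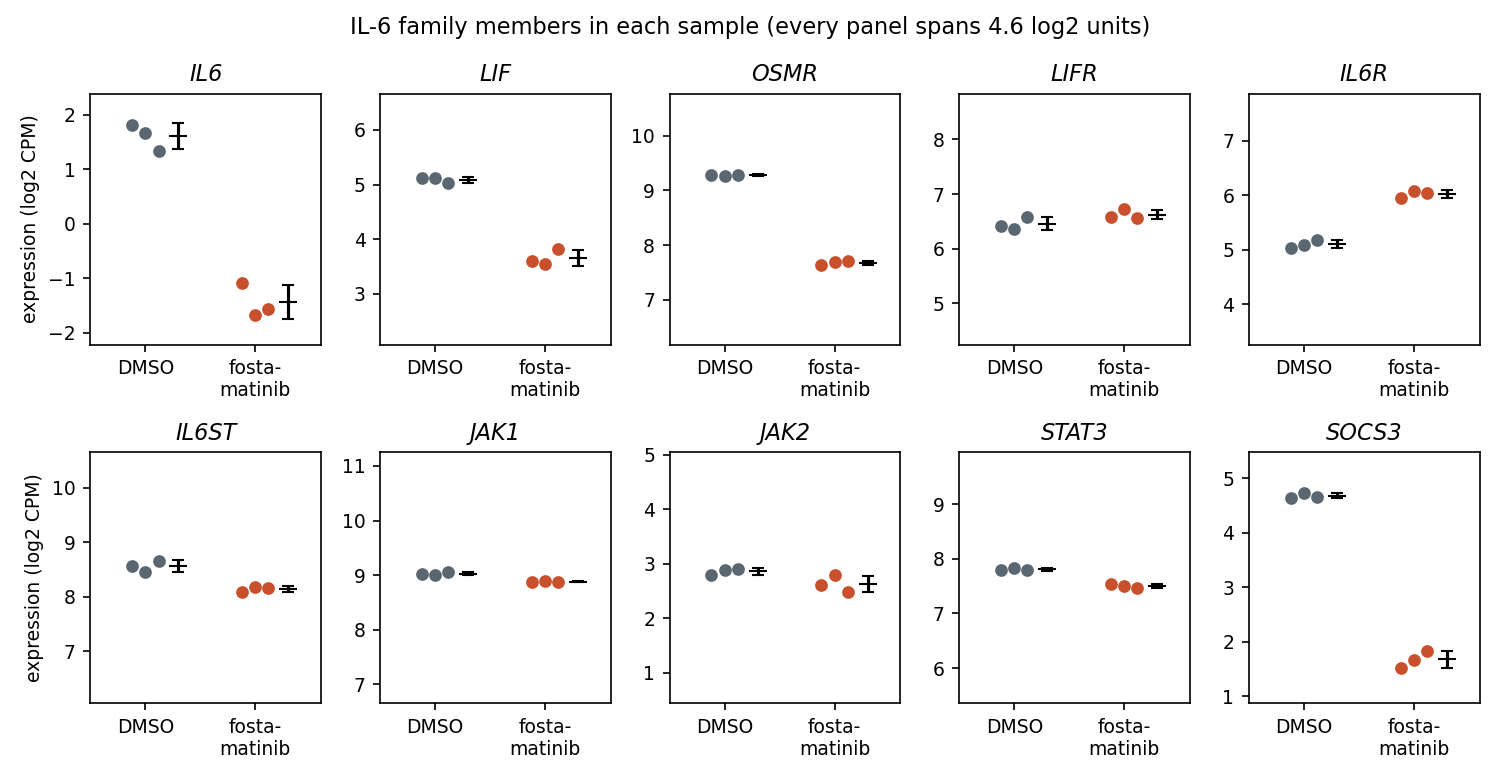
Expression of the 10 genes in each sample. The vertical axes give log2 CPM, points are the 3 DMSO (grey) and 3 fostamatinib (orange) samples, and black bars show the mean ± SD. The panels have the same span, so that distances can be compared: IL6 and SOCS3 fell furthest, with log2 fold changes of -3.04 and -2.996, and IL6R rose.

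The 4 receptor chains moved apart from one another. OSMR (ENSG00000145623, chromosome 5 from 38845960 to 38945698, + strand), the chain that pairs with gp130 to bind oncostatin M, had 626.4, 611.5 and 621.9 CPM with DMSO, a level above that of 99% of the genes. It had 198.2, 206.7 and 208.0 CPM with fostamatinib. No fostamatinib sample came near the DMSO samples, and replicates differed little. The log2 fold change of OSMR was -1.60 (SE 0.036, 95% interval -1.68 to -1.53, adjusted p = 3.01e-28, limma). OSMR shares 229 bases of exon with RICTOR on the opposite strand, and RICTOR had a log2 difference of -0.04 (adjusted p = 0.561, limma).

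LIFR (ENSG00000113594, chromosome 5 from 38474770 to 38608456, - strand), the chain that binds LIF, lies near OSMR on the same chromosome and did not fall with it. LIFR had 85.8, 82.4 and 96.1 CPM with DMSO and 96.1, 105.7 and 94.6 CPM with fostamatinib, and the groups overlapped. Its log2 fold change was 0.17 (SE 0.055, 95% interval 0.06 to 0.28, adjusted p = 0.0116, limma). This call was lost when DMSO replicate 1, DMSO replicate 2 or fostamatinib replicate 2 was left out (adjusted p = 0.0545, 0.0921 and 0.135, limma) and without the mean-variance trend (adjusted p = 0.165). LIFR-AS1, an RNA on the opposite strand with 629 shared exon bases, had 11 to 16 reads with DMSO and 15 to 27 with fostamatinib. The log2 ratio of OSMR to LIFR, in CPM like the ratios that follow, fell from 2.82 ± 0.11 (SD, n = 3) to 1.05 ± 0.085 (SD, n = 3), with no overlap between the groups. By the exact permutation test, two-sided, this gave p = 0.10, which is the least that 3 samples against 3 allow, and 0.125 after adjustment over the 5 ratios compared.

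IL6R (ENSG00000160712, chromosome 1 from 154377669 to 154441926, + strand), the chain that binds IL-6 itself, rose. Of the 10 genes only LIFR was also called higher, by less. IL6R had 32.9, 34.0 and 36.3 CPM with DMSO and 61.4, 67.6 and 65.7 CPM with fostamatinib, so that every treated sample was higher than every control sample. Its log2 fold change was 0.91 (SE 0.061, 95% interval 0.79 to 1.04, adjusted p = 5.22e-15, limma), or 189% of the DMSO level. IL6 and its own receptor chain moved in opposite directions, though IL6 passed the filter through the DMSO group only.

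IL6ST (ENSG00000134352, chromosome 5 from 55230923 to 55290850, - strand), which encodes the shared chain gp130, fell by less than OSMR. It had 380.0, 349.6 and 404.7 CPM with DMSO and 271.1, 291.6 and 286.2 CPM with fostamatinib, again with no overlap. The log2 fold change was -0.42 (SE 0.043, 95% interval -0.50 to -0.33, adjusted p = 3.95e-10, limma), which left 74.9% of the level. The log2 ratio of IL6R to IL6ST rose from -3.46 ± 0.086 (SD, n = 3) to -2.12 ± 0.017 (SD, n = 3) (exact permutation p = 0.10, adjusted 0.125).

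**Figure D2:**
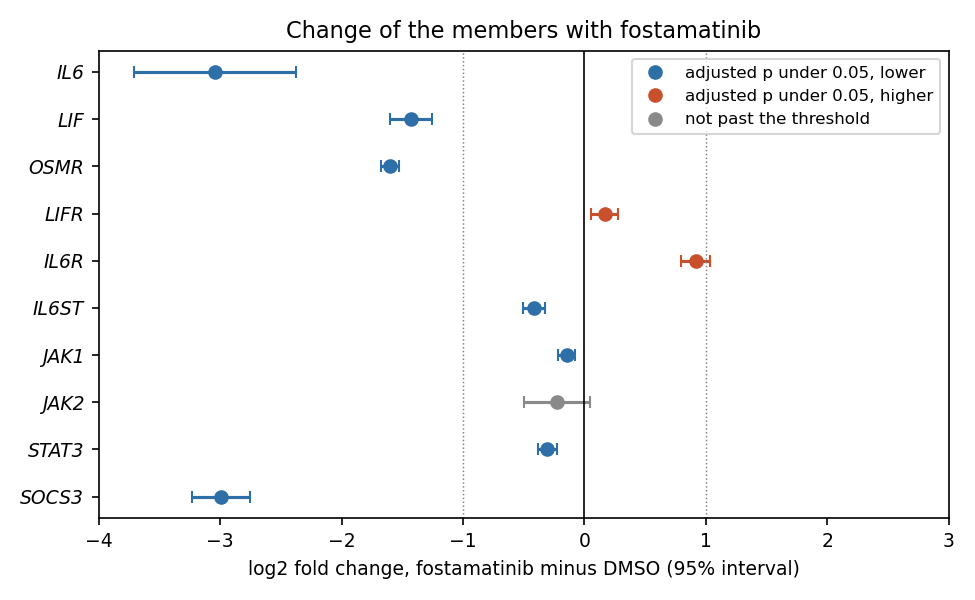
Log2 fold change of each gene (fostamatinib minus DMSO) with its 95% interval from limma, 3 samples per group. Blue points were called lower, orange points higher, and the grey point, JAK2, was not called. Dotted lines mark a 2-fold change, which IL6, SOCS3, OSMR and LIF exceeded.

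Because these genes differ in length, levels were compared between genes as CPM per kilobase of merged exons. On this scale OSMR was the highest of the 10 genes with DMSO (86.4 ± 1.07, SD, n = 3), above JAK1 (39.7 ± 0.73), IL6ST (31.4 ± 2.29) and STAT3 (20 ± 0.34). With fostamatinib JAK1 (35.8 ± 0.28) was above OSMR (28.5 ± 0.75) and IL6ST (23.5 ± 0.88). SOCS3 went from place 5 to place 8 and IL6R from place 8 to place 5, while JAK2 and IL6 stayed lowest in both groups. With merged exons, no neighbors in these orders had overlapping samples in either group. The closest were SOCS3 and LIF with DMSO, at a ratio of 1.07. With the length of the longest transcript in place of merged exons, 8 of the 10 genes kept their place in each group, and STAT3 stood above IL6ST in both. On that scale the samples of STAT3 overlapped those of IL6ST with DMSO and those of OSMR with fostamatinib, and LIF overlapped LIFR and JAK2 overlapped IL6 with DMSO.

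The makeup of the receptor transcripts differed between the groups. With DMSO, OSMR made up 65.0% to 67.7% of the summed level of the 4 chains per length, and with fostamatinib 40.4% to 41.5%. The share of IL6ST went from 23.0% to 25.2% with DMSO to 33.7% to 33.9% with fostamatinib, although its own level fell, and the log2 ratio of OSMR to IL6ST went from 0.72 ± 0.094 (SD, n = 3) to -0.47 ± 0.024 (SD, n = 3) (exact permutation p = 0.10, adjusted 0.125). The share of IL6R rose from 3.6% to 3.9% to 13.1% to 13.5%. For every 100 transcripts of IL6ST per length there were 14.9 to 16.8 of IL6R with DMSO and 39 to 40 with fostamatinib.

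**Figure D3:**
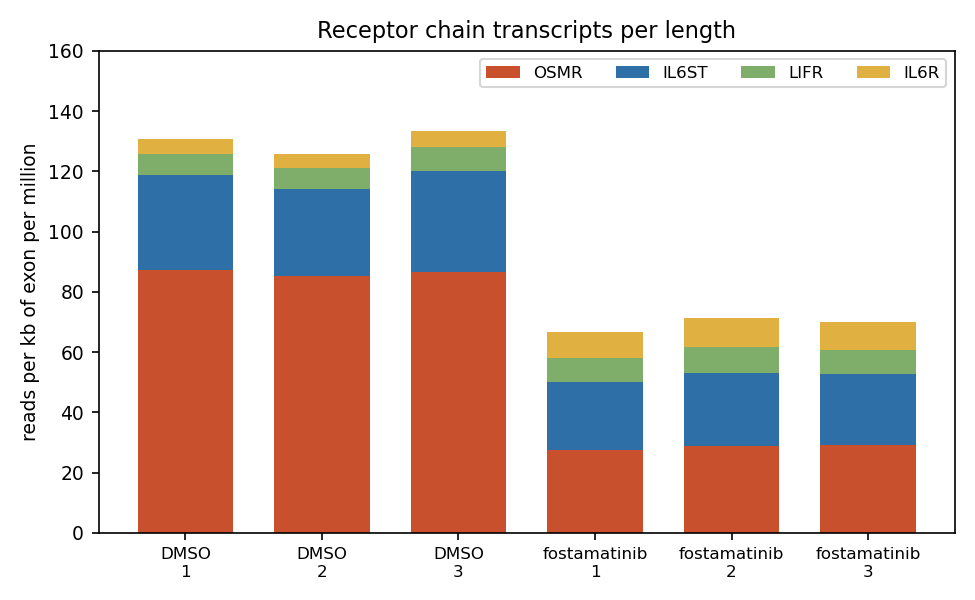
Levels of the 4 receptor chain transcripts in each sample, stacked, in CPM per kilobase of merged exons. Summed levels lay at 126 to 133 with DMSO and at 66.8 to 71.4 with fostamatinib, and most of the difference lay in OSMR.

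The kinases and STAT3 itself changed little in size. JAK1 (ENSG00000162434, chromosome 1 from 65298906 to 65533437, - strand), the main kinase bound to gp130, had 519.5, 515.1 and 533.6 CPM with DMSO and 472.1, 475.7 and 468.3 CPM with fostamatinib. The groups did not overlap, but the treated samples kept 90.3% of the level (log2 fold change -0.15, SE 0.034, 95% interval -0.22 to -0.08, adjusted p = 5.24e-04, limma). JAK2 (ENSG00000096968, chromosome 9 from 4984390 to 5129948, + strand), a second kinase of these receptors, had 95, 112 and 111 reads with DMSO and 84, 98 and 74 with fostamatinib. Its log2 difference of -0.23 was not called (SE 0.13, 95% interval -0.50 to 0.05, adjusted p = 0.166, limma), and the interval leaves room for 70.7% to 103% of the DMSO level.

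STAT3 (ENSG00000168610, chromosome 17 from 40465342 to 40540558, - strand) had 222.2, 228.7 and 222.2 CPM with DMSO and 186.2, 180.8 and 177.7 CPM with fostamatinib. All treated samples were lower, and the log2 fold change was -0.31 (SE 0.040, 95% interval -0.39 to -0.22, adjusted p = 6.28e-08, limma), which left 80.9% of the level. Other JAK and STAT genes went both ways. STAT5A, which serves growth hormone and other cytokines, fell by 0.26 on the log2 scale (adjusted p = 0.0159, limma). The call of STAT5A was lost without DMSO replicate 1, fostamatinib replicate 2 or fostamatinib replicate 3 (adjusted p = 0.0849, 0.0502 and 0.0502, limma). STAT2 rose by 0.63 (SE 0.052 and adjusted p = 1.87e-12, limma), STAT6, which serves IL-4 and IL-13, by 0.54 (adjusted p = 2.90e-14), and the kinase TYK2 by 0.50 (adjusted p = 3.96e-10). STAT4 and STAT5B had log2 differences of 0.25 and 0.09 and were not called.

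SOCS3 (ENSG00000184557, chromosome 17 from 76352859 to 76356158, - strand), the feedback inhibitor that STAT3 induces, fell about as far as IL6 and from a far higher count. It had 343, 405 and 374 reads with DMSO and 39, 45 and 47 with fostamatinib, or 24.9 to 26.5 CPM against 2.84 to 3.55 CPM. The groups were far apart, and the log2 fold change was -2.996 (SE 0.12, 95% interval -3.24 to -2.76, adjusted p = 2.65e-21, limma), which left 12.5% of the level. Ordered from the largest fall, SOCS3 stood at place 22 of the 16305 genes, OSMR at 235 and LIF at 303. IL6 stood at place 21, but it could be in the files only by being higher with DMSO. The size of its fall also depends on the number added to each count. The log2 ratio of SOCS3 to STAT3 fell from -3.13 ± 0.026 (SD, n = 3) to -5.83 ± 0.19 (SD, n = 3) (exact permutation p = 0.10, adjusted 0.125).

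Counted together, 9 of the 10 genes were called, 7 lower and 2 higher, where 47.8% of all genes were called. The 4 that fell more than 2-fold were IL6, SOCS3, OSMR and LIF, where 3.29% of all genes did. The samples of the groups did not overlap for 9 of the 10 genes, the exception being LIFR, against 54.1% of all genes. IL6 could enter the files only by being higher with DMSO. Without it 8 of 9 genes were called, 6 lower and 2 higher, 3 fell more than 2-fold and 8 had groups that did not overlap.

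Other negative regulators of the pathway were mixed. All 15 listed were in the files, with 3 called higher, 6 lower and 6 not called (60% called, against 47.8% of all genes), and a median log2 fold change of -0.11. SOCS1, a close relative of SOCS3 that blocks JAK kinases, had 131, 135 and 121 reads with DMSO and 31, 19 and 16 with fostamatinib, and fell by 2.49 on the log2 scale (SE 0.20 and adjusted p = 6.41e-13, limma). CISH, the SOCS family member induced by STAT5, fell by 0.94 (SE 0.22 and adjusted p = 4.99e-04), with 37 reads in 1 treated sample against 21 and 22 in the others. SOCS4 fell by 0.48 (SE 0.064 and adjusted p = 9.71e-08, limma) and PTPN2, a phosphatase that acts on JAK1 and STAT proteins, by 0.42 (SE 0.059 and adjusted p = 2.92e-07). The 3 called higher, named after their values were seen, were PTPN6 with a rise of 0.38, PIAS1 with 0.37 and PIAS3 with 0.27 on the log2 scale. In this list SOCS1 alone fell more than 2-fold. The log2 ratio of SOCS3 to SOCS1 was 1.53 ± 0.13 (SD, n = 3) with DMSO and 1.02 ± 0.62 (SD, n = 3) with fostamatinib. The fall of 0.51 was smaller than the SD of the treated samples (exact permutation p = 0.20, adjusted 0.20). The least p that 3 samples against 3 allow is 0.10, so the test could not settle whether this ratio changed.

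Genes known as STAT3 targets mostly fell. Of 18 listed 17 were in the files, with 13 called lower, 3 higher and 1 not called. The share called was 94.1%, against 47.8% of all genes, of which 24.5% were called lower. The median log2 fold change was -0.71, against 0.0015 over all genes. IER3, an early response gene, fell by 1.78 on the log2 scale (SE 0.097 and adjusted p = 2.45e-17, limma), from 480, 546 and 462 reads to 151, 151 and 108. CEBPD, a transcription factor of the acute-phase response, fell by 1.74 (SE 0.062 and adjusted p = 1.54e-22, limma), from 1004, 1149 and 1045 reads to 305, 315 and 279. FOS, a subunit of AP-1, fell by 1.44 (SE 0.22 and adjusted p = 7.24e-07) and CCND1, cyclin D1, by 1.40 (SE 0.047 and adjusted p = 2.35e-23). These genes also answer to ERK and NF-kB signaling, so the list is not particular to STAT3. The 3 that rose were PIM1 by 0.55, FGL1 by 0.50 and BIRC5 by 0.14 on the log2 scale. The groups of BIRC5 overlapped (adjusted p = 0.0281, limma), and its call was lost without DMSO replicate 3, fostamatinib replicate 1 or fostamatinib replicate 2 (adjusted p = 0.14, 0.135 and 0.0951) and without the mean-variance trend (adjusted p = 0.163). BCL3 had a log2 difference of -0.10 and was not called. These 4 were named after their values were seen.

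Genes listed as acute-phase genes under IL-6 went in opposite directions. Whether each of them, A2M included, answers to IL-6 in these human cells was not tested. Of 18 listed 15 were in the files, with 6 called higher, 6 lower and 3 not called. The share called was 80%, against 47.8% of all genes, which were also split almost evenly (23.3% higher and 24.5% lower). The median log2 fold change was -0.19, against 0.0015 over all genes. LBP, the binding protein for lipopolysaccharide, had 60, 74 and 74 reads with DMSO and 21, 19 and 16 with fostamatinib, and fell by 1.78 on the log2 scale (SE 0.21 and adjusted p = 8.36e-09, limma). SAA2, a serum amyloid A gene, fell by 1.57 (SE 0.064 and adjusted p = 6.20e-21, limma), from 955, 1147 and 1174 reads to 349, 374 and 315. Its reads may be split with its near-identical neighbor SAA1, which is named after its values were seen. SAA1 had more reads, 6214, 6866 and 6584 with DMSO and 5383, 5742 and 4964 with fostamatinib, and a log2 difference of only -0.20. A2M, alpha-2-macroglobulin, rose by 1.45 (SE 0.044 and adjusted p = 1.32e-24, limma), from 1369, 1545 and 1435 reads to 3530, 3900 and 3765. FGA, the alpha chain of fibrinogen, rose by 1.29 (SE 0.036 and adjusted p = 1.17e-25, limma), from 10231 to 12413 reads to 25695 to 28472. The hepatocyte markers, a separate list whose own answer to IL-6 was not tested either, rose in the same samples as A2M and FGA. Their median rise was 0.55 on the log2 scale, and their part in the rises of A2M and FGA was not tested.

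**Figure D4:**
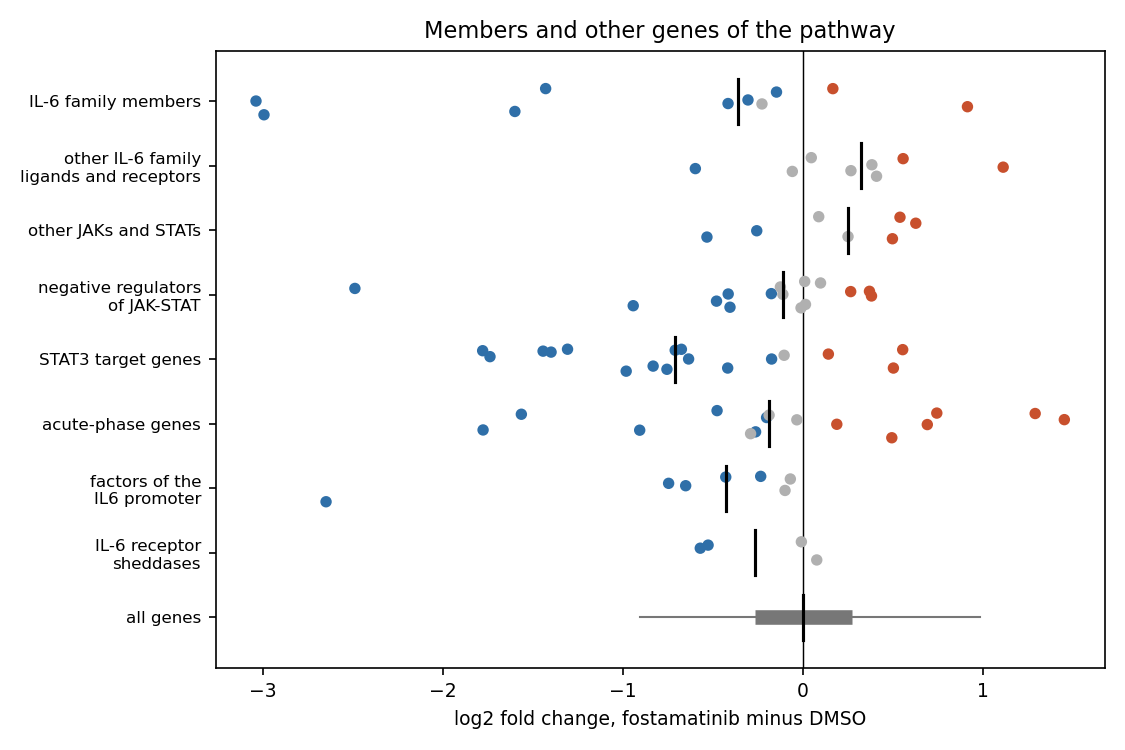
Log2 fold change (fostamatinib minus DMSO) of every gene measured in each list, 1 point per gene, with the median as a black line. Blue points were called lower, orange points higher and grey points not called, and the bar at the bottom gives percentiles 25 to 75 (thick) and 5 to 95 (thin, -0.91 to 0.98) of all 16305 genes. STAT3 target genes lay mostly below 0, with a median of -0.71, and acute-phase genes on both sides.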

How the data were processed

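RNA-seq data of 3 fostamatinib-treated and 3 DMSO-treated samples of Huh7SR cells were used, grouped by the sample titles. The authors aligned to hg19 by HISAT and used featureCounts with GENCODE v.22 to count reads per gene (tool versions are not given in the sources used here), removed genes with low counts, and applied TMM normalization. The deposited values are log2 CPM with 0.5 added to each count. All could be turned back into reads within 0.05 of a whole number. Each file holds 1 sample and 16311 rows for 16305 genes, since 1 gene is listed 7 times.

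Treatment was the single term of a linear model in limma (version 3.58.1, R 4.3.3), whose eBayes step allowed the variance to follow the mean. The test pools the spread across genes (median of 33.9 total degrees of freedom, 4 residual), so very small p-values of single genes rest on this pooling. The code was tested on simulated data. Tables were made in Python 3.11.15 (pandas 2.3.3, scipy 1.17.1, numpy 2.4.6). Coordinates and exon lengths are from GRCh37 with GENCODE version 44 mapped to it (98.7% of genes found). Named were the 10 genes, the measured genes of the other family and JAK/STAT lists, except that 1 item is not reported here, the 4 called genes with the largest change in each other list, and the 3 most correlated with IL6. The members and lists were chosen with earlier results of these data known, and supply no independent support. The library kit was directional. Whether counting used strand is not given in the sources used here, so reads of genes overlapping on opposite strands may be mixed. Alternatives are described at the end.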

Additional observations from a re-analysis of the deposited data

How the results depend on the processing

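Fold changes and calls were recomputed under 14 alternatives. These were limma-voom on the recovered reads, no mean-variance trend, median-ratio size factors, library size alone and 2 added to each count. The others were stricter count filters, the replicate number as a block, and the omission of each sample in turn. The ratios, receptor shares, group overlaps, marker sums, permutation tests and correlations with IL6 were computed once and not under these alternatives. RRP12, PEA15 and DDIT4, the genes most correlated with IL6, were not followed under the alternatives. The naming rule selects 43 other genes, with 598 values under the 14 alternatives. No value that was called, as reported or under the alternative, changed sign. Values not called could change sign, as EBI3 did, from -0.06 to 0.01 without DMSO replicate 2. Of the 598 values, 591 kept their side of the threshold and 7 lost their call. Those 7, among genes the rule selects, belong to LIFR (4) and STAT5A (3, adjusted p = 0.0502 to 0.0849 without 1 sample, limma). Of the genes named outside the rule, BIRC5 lost its call in 4 of the 14 alternatives and RELA gained one without DMSO replicate 3 (adjusted p = 0.0122, limma). Of the 10 genes 9 were called as reported, 8 without the trend, and 8 of the 9 tested under either stricter filter, which removed IL6. With 1 sample left out it was 8 to 9, and the count over all genes was 6958 to 7480 against 7794. The lowest count over all genes was 6382, without the trend. A fit that took the replicate number as a block called 7977 genes in all and 9 of the 10. The labels give both groups the numbers 1 to 3, but the correlation between same-numbered samples, after removal of each group mean, was only 0.0365, -0.0213 and 0.0371, so the numbers were not treated as pairs. Scaling moved the median of all genes to between -0.00955 and 0.00515 on the log2 scale. A run without any filter was not made, since the files are already filtered. IL6 with 4 to 6 treated reads is the value that depth limits most.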

Other observations

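Transcription factors known to act on the IL6 promoter were also measured. Of the 7 listed, 5 were called lower, 2 were not called and none was called higher (71.4% called, against 47.8% of all genes), with a median log2 fold change of -0.43 against 0.0015 over all genes. FOSL1, a subunit of AP-1, had 208, 222 and 209 reads with DMSO and 37, 30 and 28 with fostamatinib, and fell by 2.65 on the log2 scale (standard error, SE, 0.15 and adjusted p = 3.04e-17, limma). CEBPG fell by 0.75 (SE 0.049 and adjusted p = 3.13e-15, limma), JUN by 0.65 (SE 0.053 and adjusted p = 1.10e-12) and NFKB1, which encodes a subunit of NF-kB, by 0.43 (SE 0.049 and adjusted p = 3.44e-09). RELA, the other main NF-kB subunit, had a log2 difference of -0.10 (adjusted p = 0.117, limma) and is named, like SP1 with -0.07, because these 2 were not called.

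IL6R can be cut from the cell surface by ADAM proteases, which releases a soluble receptor. Of 4 genes listed for this cleavage 2 were called lower and 2 were not called, a share (50%) near the 47.8% over all genes, with a median log2 fold change of -0.27. ADAM17 fell by 0.57 on the log2 scale (SE 0.055 and adjusted p = 7.83e-11, limma), from 1146, 1229 and 1195 reads to 698, 824 and 742. RHBDF2, which carries ADAM17 to the cell surface, fell by 0.53 (SE 0.063 and adjusted p = 8.93e-09, limma). ADAM10 and RHBDF1 had log2 differences of -0.01 and 0.08 and were not called, and are named after their values were seen.

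The 3 genes most like IL6 over the 6 samples, among those with a mean of at least 50 reads in 1 group, were RRP12, PEA15 and DDIT4, with Pearson r of 0.9997, 0.9994 and 0.9993. The 6 points share the split between treatments, which sets most of this value, and all 3 genes fell by much less than IL6, by 1.16, 0.78 and 0.99 on the log2 scale.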
